A study of Homo sapiens with 8 samples.

Results

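The response of glioblastoma cells to panobinostat alone was described across all genes of an expression array. NCH644 cells are a stem-like line from a glioblastoma, an aggressive brain tumour, and were kept as floating neurospheres in MG-43 medium. The compared arrays were the 2 of cells given panobinostat at 5 µM and the 2 of cells given DMSO, the vehicle, and RNA was collected 24 h after either was added. They are 4 of the 8 arrays of the series. Of the other arrays, 2 had OTX015, an inhibitor of the BET bromodomain proteins, at 5 µM. The last 2 had both drugs at 5 µM each. These other arrays entered the shared estimate of spread behind every standard error and p-value, and the background level below. Their values are described only where named. All groups were the same line in the same culture, so every value describes 1 cell line. The series text calls the arrays of a group biological duplicates without saying how the cultures were separated, so the p-values measure the spread between these arrays, and 2 arrays a group limit the precision of every value. The 22458 genes tested were all those whose probe set had exactly 1 gene symbol, of 23786 probe sets.

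Histone deacetylases (HDACs) remove acetyl groups from the lysines of histones and of many other proteins. Class I enzymes (HDAC1, HDAC2, HDAC3 and HDAC8) sit mostly in nuclear corepressor complexes, class II enzymes move between nucleus and cytoplasm, and the zinc in the active site of these enzymes is bound by hydroxamates such as panobinostat. Raised histone acetylation is known to accompany such inhibitors, with genes going both up and down, and CDKN1A is a textbook gene induced by them.

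The cultures carried the markers of neural stem cells. SOX2, a stem cell transcription factor, stood at 7.95 and 8.02 on the log2 scale in the panobinostat arrays and at 10.14 and 10.06 in the DMSO arrays, and OLIG2, a transcription factor of glioma stem cells, at 10.05 and 9.98 with panobinostat and 9.84 and 9.97 with DMSO. GFAP, the astrocyte filament, lay between 3.33 and 3.58 with panobinostat and between 3.40 and 3.74 with DMSO. A background level of 3.03 was taken from 354 genes for olfactory receptors, which function in the nose: 95% of their mean levels in a group lay below it. PTPRC, the pan-leukocyte marker, was below it in every one of the 4 arrays (0.98 and 1.08 with panobinostat, 1.2 and 1.15 with DMSO). Of 27 stem and progenitor genes, described below, 4 lay under this level in both groups, and 14 fell and 3 rose with panobinostat. Of 25 oligodendrocyte lineage genes, OLIG2 among them, 14 fell (56%, against 17.9% of all genes) and 2 rose (8%, against 19.4%). That list was made with earlier results in view. OLIG1, also in it, fell (group means 4.68 with panobinostat, 8.41 with DMSO).

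Panobinostat changed 8360 of 22458 genes, 37.2% of those tested, at an adjusted p under 0.05 in limma. Of these 4347 (19.4%) rose and 4013 (17.9%) fell. Counts in the gene lists below are to be read against these 2 shares. Below, a gene is called when it passed that test, changes are log2 differences of panobinostat minus DMSO ± standard error (SE) with n = 2 arrays in each group, and the median change over all genes was -0.05. The arrays of all called genes separated by group, but so did those of 66.6% of all genes. Most changes were moderate: the median size of a called change was 0.93, and 1957 genes (8.71%) rose and 1807 (8.05%) fell by over 2-fold, 16.8% of all genes together. Far out in the tails, 112 genes rose and 109 fell by over 8-fold, and 38 rose and 20 fell by over 16-fold.

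Calls depended on how bright a gene was. Among the 8356 genes whose mean over the 4 arrays lay under the background level, 439 rose and 456 fell, against 1615 and 1706 of the 5384 genes with a mean between 5 and 7. In the band between background and 5, 713 of 5381 genes rose and 445 fell by over 2-fold. Protein-coding genes made up most calls (3961 rose and 3603 fell of 17645), and long noncoding RNAs were called less (253 rose and 191 fell of 2234), a difference in levels that was not adjusted for. A total of 463 genes were switched on, meaning called with both DMSO arrays under background and both panobinostat arrays above it, and 70 of them averaged over 5 with panobinostat. The reverse, switched off, held 206 genes, of which 28 averaged over 5 with DMSO.

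**Figure D1:**
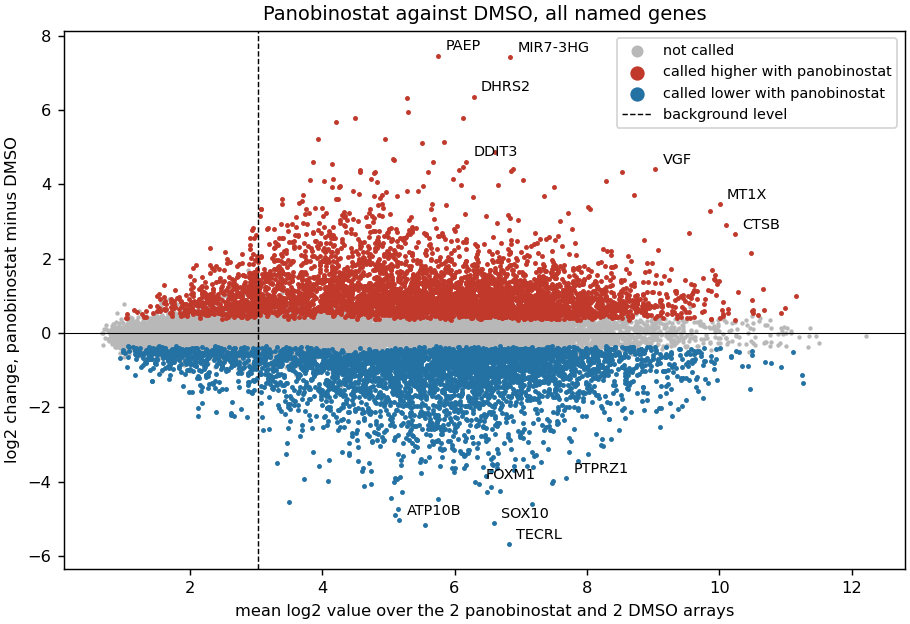
Each point is 1 of 22458 genes. The x axis is its mean log2 value over the 2 panobinostat and 2 DMSO arrays, the y axis its log2 change (panobinostat minus DMSO), red points are the 4347 genes called higher, blue points the 4013 called lower, grey points those not called, and the dashed line is the background level of 3.03. Called genes spread to both sides at every level above background.

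Among the largest rises of protein-coding genes above background in both groups were those of DHRS2 and GEM. DHRS2, a short-chain dehydrogenase, was at 9.41 and 9.53 with panobinostat and 2.67 and 3.56 with DMSO. GEM, a small GTPase, was at 9.22 and 8.82 with panobinostat and 3.13 and 3.35 with DMSO. DDIT3, which encodes CHOP, a transcription factor of stress-induced cell death, stood at 8.48 in both panobinostat arrays against 3.73 and 4.01 in DMSO, a 24.4-fold rise (4.61 ± 0.15, adjusted p = 9.92e-07). VGF, a secreted neuropeptide precursor, reached 11.28 and 11.20 with panobinostat against 6.81 and 6.85 with DMSO (4.41 ± 0.13, 21.3-fold). Both genes had panobinostat arrays within 0.1 of each other, far above DMSO. CRISPLD2, a secreted protein, was at 7.86 and 8.09 with panobinostat and 3.24 and 3.51 with DMSO, 24.2-fold higher. SLC2A3, the high-affinity neuronal glucose transporter GLUT3, was at 8.11 and 7.99 against 4.22 and 3.59 in DMSO, 17.7-fold higher. CCR7, a chemokine receptor best known on lymphocytes and dendritic cells, was at 8.37 and 8.14 with panobinostat and 3.60 and 4.17 with DMSO, while PTPRC stayed at background. GPR50, a melatonin-receptor relative, rose by 4.46 ± 0.29 and ROPN1L, a sperm and cilium protein, by 4.33 ± 0.22.

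Genes that ended among the brightest on the array included STC1, a secreted glycoprotein hormone, at 10.47 and 10.18 with panobinostat and 6.58 and 5.88 with DMSO (4.10 ± 0.22). SRXN1, the NRF2 target sulfiredoxin, was at 10.63 and 10.50 with panobinostat and 6.91 and 6.82 with DMSO (3.70 ± 0.16). DUSP1, a phosphatase of MAP kinases, was at 9.81 and 9.63 with panobinostat and at 6.32 in both DMSO arrays (3.40 ± 0.13). These groups did not overlap for any of the 3 genes.

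Among the switched-on genes with the highest panobinostat levels, PAEP, a lipocalin of the endometrium, was at 9.54 and 9.42 with panobinostat and 2.07 and 1.97 with DMSO, at least 87.7-fold higher when DMSO is set at the background level. XIRP1, a muscle adhesion protein, was at 7.46 and 7.38 with panobinostat against 2.62 and 2.84, at least 21.0-fold higher. The bone phosphatase PHOSPHO1 rose at least 15.3-fold, the cation-chloride cotransporter relative SLC12A8 at least 15-fold and SERPINI1, a neuronal protease inhibitor, at least 13.3-fold. Also switched on were MMP1, a collagenase (6.49 and 6.03 with panobinostat, 2.03 and 2.56 with DMSO), and MAN1A1, a Golgi mannosidase (6.50 and 6.33 with panobinostat, 2.56 and 2.82 with DMSO). ACTBL2 rose at least 10.5-fold, a value that is uncertain because actin genes share sequence.

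Among the deepest falls above background were those of TECRL and SOX10. TECRL was at 4.14 and 3.82 with panobinostat and 9.78 and 9.56 with DMSO. SOX10, a transcription factor of oligodendrocytes, was at 4.16 and 3.91 with panobinostat and 9.06 and 9.26 with DMSO. MBNL3, a regulator of splicing, was at 3.29 and 3.73 with panobinostat against 8.04 and 7.95 with DMSO, 22.4-fold lower (-4.48 ± 0.20). ITIH6, of the family that binds hyaluronan, was at 3.21 and 2.91 with panobinostat and 7.21 and 7.47 with DMSO. HAS2, a hyaluronan synthase, was at 3.33 and 2.95 with panobinostat and 7.11 and 6.99 with DMSO. In MBNL3, ITIH6 and HAS2 every panobinostat array was under 4. SCRG1 fell by 4.01 ± 0.25 and CYBRD1, a ferric reductase, by 3.92 ± 0.26 on the log2 scale. PTPRZ1, a receptor phosphatase of oligodendrocyte progenitors, remained measurable at 5.75 and 5.71 with panobinostat against 9.65 and 9.62 with DMSO.

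Other bright genes with deep falls were LSAMP, a neuronal adhesion molecule (6.13 and 6.16 with panobinostat, 9.55 and 9.62 with DMSO), QPRT, an enzyme of NAD synthesis (6.37 and 6.38 against 9.67 and 9.62 in DMSO), and BCHE, butyrylcholinesterase (6.70 and 6.75 against 9.77 in both DMSO arrays). Among genes switched off were the connexin GJB1, at least 12.7-fold lower, the netrin receptor UNC5C, at least 10.8-fold, the sialidase NEU4, at least 9.48-fold, the glial cadherin CDH19, at least 8.29-fold, and the polarity gene CRB1, at least 8.15-fold. RFTN2, a lipid raft protein, was at 2.90 and 2.74 with panobinostat against 7.39 and 7.12 with DMSO.

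**Figure D2:**
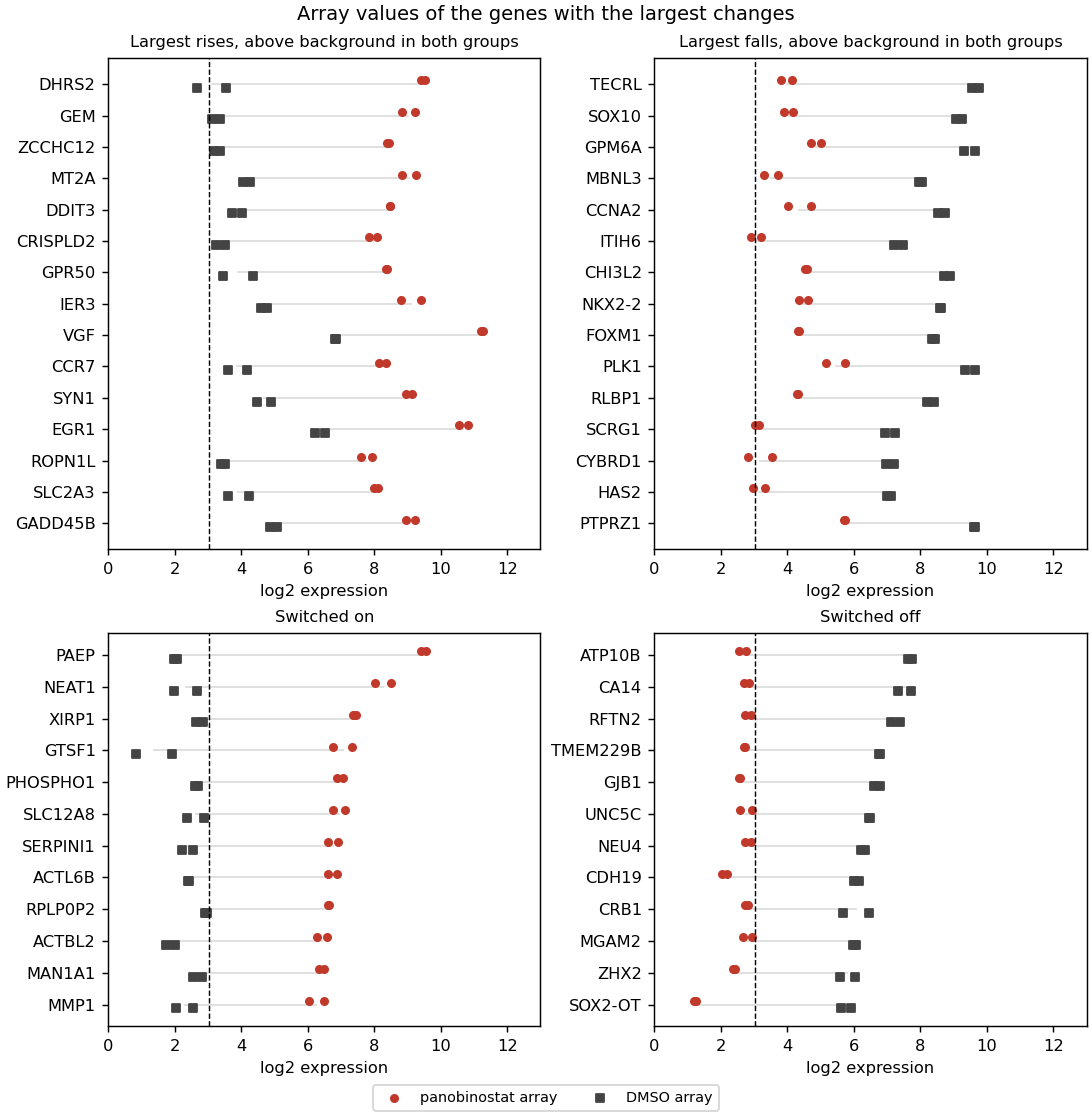
Log2 expression (x axis) in each panobinostat array (red circles) and each DMSO array (dark squares). Shown are the 15 largest rises and 15 largest falls with both group means above background, and 12 genes switched on and 12 switched off. Left out beforehand were small RNA genes, MIR7-3HG, antisense RNAs, uncharacterised loci, and families such as histone, HLA, MT1 and numbered ZNF genes. The dashed line is the background level of 3.03, and in every row the panobinostat arrays lie wholly to 1 side of the DMSO arrays.

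A noncoding RNA had 1 of the largest rises. MIR7-3HG, the host transcript of the third copy of miR-7, was at 10.49 and 10.61 with panobinostat against 2.98 and 3.28 with DMSO, 172-fold higher (7.42 ± 0.14, adjusted p = 9.21e-08). The miRNA gene inside it, MIR7-3, moved with it, at 4.97 and 5.31 with panobinostat and 1.66 in both DMSO arrays. MIR616, which lies inside DDIT3, was at 6.34 and 6.75 with panobinostat and 1.29 and 1.39 with DMSO, at least 11.4-fold higher. MIR21, inside VMP1, was at 5.76 and 4.38 with panobinostat and 3.47 and 3.48 with DMSO (1.59 ± 0.44, adjusted p = 0.0208), and leaving out 1 of 3 arrays in turn (panobinostat 1, DMSO 1 or DMSO 2) ended that call. VMP1, a membrane protein of autophagy, rose by 1.44. The mature forms are shown because their seeds, bases 2 to 8 in capitals, set which transcripts each can pair with:
hsa-miR-7-5p: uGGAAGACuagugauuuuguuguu
hsa-miR-616-5p: aCUCAAAAcccuucagugacuu
hsa-miR-616-3p: aGUCAUUGgaggguuugagcag
hsa-miR-21-5p: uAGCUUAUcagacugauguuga
hsa-miR-25-3p: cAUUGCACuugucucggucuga
hsa-miR-219a-5p: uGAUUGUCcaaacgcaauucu

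These sequences are from RefSeq (GRCh38.p14), and their seeds all differ. The arrays were hybridised with labelled total RNA, so a probe set in an miRNA gene can read the precursor or the transcript around it, and mature miRNA was not measured. The first copy, MIR7-1, gives the same mature miR-7-5p from within HNRNPK, and it was at 1.84 and 1.47 with panobinostat and 2.78 and 2.32 with DMSO, under background in both groups and lower by 0.89 ± 0.19. MIR25, in MCM7, a helicase subunit gene that fell by 1.85 on the log2 scale, was at 4.31 and 4.58 with panobinostat and 5.23 and 6.02 with DMSO. MIR219A2, an miRNA gene of the oligodendrocyte lineage, was at 2.85 and 3.0 with panobinostat and 4.77 and 5.56 with DMSO, at least 4.40-fold lower. All of these miRNA genes were picked after their values were seen.

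Over all 1097 miRNA genes, 29 were called higher (2.64%, against 19.4% of all genes) and 86 lower (7.84%, against 17.9%). In both groups 766 lay under background. Of the 29, 18 lie inside another tested gene, matched by position without regard to strand. In 12 cases such a gene was called higher as well and in 2 the other way. MIR635 is in both counts, as it lies within WIPI1, called higher, and ARSG, called lower. Of the 86, 56 lie inside a tested gene, with 32 the same way and 3 the other way. Genes holding the uncalled miRNA genes were not counted, so these numbers carry no comparison beyond the shares over all genes. Other noncoding rises were PDE7B-AS1, at least 10.2-fold, ATP2B1-AS1 (3.33 ± 0.14) and CBR3-AS1 (3.0 ± 0.25). SLCO4A1-AS1 fell at least 6.57-fold, DPP10-AS1 by 2.71 ± 0.14 and GRASLND, a regulator of cartilage formation, by 2.63 ± 0.13. Where an antisense RNA overlaps its partner, which strand the probes read is not known from the labels.

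The genes of the drug's own targets moved in both directions. HDAC3, the catalytic subunit of the NCoR and SMRT complexes, was at 8.63 and 8.55 with panobinostat against 7.05 and 7.09 with DMSO (1.51 ± 0.12, adjusted p = 2.6e-05). HDAC1 was at 8.79 and 8.77 with panobinostat and 7.76 and 7.67 with DMSO (1.06 ± 0.14). HDAC2, its close relative, was at 9.81 and 9.67 with panobinostat and 9.89 and 9.86 with DMSO, and was not called (-0.14 ± 0.12, adjusted p = 0.426). HDAC8 fell by 0.64 ± 0.15. Among class II and IV genes HDAC5 was at 7.21 and 6.98 with panobinostat and 6.05 and 5.97 with DMSO (1.09 ± 0.15), and HDAC11 and the tubulin deacetylase HDAC6 rose by 0.59 ± 0.13 and 0.50 ± 0.13. HDAC9 was at 2.96 and 2.58 with panobinostat and 3.95 and 3.89 with DMSO, and HDAC7 and HDAC4 fell by 0.80 ± 0.24 and 0.46 ± 0.14. The calls of HDAC4, HDAC6 and HDAC7 ended when any 1 of the 4 arrays was left out, and that of HDAC8 without panobinostat 1. HDAC10 was not called, and its difference of 0.03 turned to -0.06 when arrays were centred on their medians. SIRT7, a deacetylase of the NAD-dependent class that panobinostat does not target, rose by 1.86 ± 0.14.

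Writers of acetylation fell more often than they rose. Of 12 measured lysine acetyltransferase genes, 8 fell and 1 rose, with a median of -0.82. KAT2A (GCN5) was at 5.51 and 5.47 with panobinostat and 6.98 and 6.87 with DMSO, and CREBBP, which encodes CBP, was at 7.73 and 7.48 with panobinostat and 8.92 and 8.81 with DMSO. Its paralog EP300 went the other way by 0.45 ± 0.15 (adjusted p = 0.0427), a call that ended when any 1 array was left out. Subunits of the corepressor complexes that hold class I HDACs had 12 of 26 lower and 7 higher (median -0.14). RCOR2, of the CoREST complex, fell by 2.58 ± 0.22 and MTA1, of the NuRD complex, by 2.06 ± 0.15, while the NCoR subunit gene GPS2 (1.02 ± 0.13) and the scaffold SIN3A (0.92 ± 0.12) rose. Of the 3 BET reader genes measured here, BRD3 fell by 0.66 ± 0.13 and the others were not called.

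DNA methylation enzymes had 7 of 10 genes lower and 0 higher, with a median of -0.81. The demethylating oxygenase TET2 was at 5.40 and 5.22 with panobinostat and 6.83 and 6.98 with DMSO, and the maintenance methyltransferase DNMT1 at 8.11 and 8.04 with panobinostat and 9.01 and 8.96 with DMSO. Both the methylating and the demethylating enzymes were thus on the lower side. UHRF1, which recruits DNMT1 to newly copied DNA, fell by 1.23 ± 0.15 and the de novo enzyme DNMT3A by 1.23 ± 0.18.

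In the SWI/SNF chromatin remodeller 14 of 26 subunit genes fell and 5 rose (median -0.48). ACTL6B, the subunit that neurons exchange for ACTL6A, was switched on, at 6.61 and 6.88 with panobinostat against 2.42 and 2.41 with DMSO, at least 13.1-fold higher. ARID1B was at 5.33 and 5.20 with panobinostat and 7.51 and 7.76 with DMSO (-2.37 ± 0.17), and the core subunit SMARCB1 fell by 1.59 ± 0.14. Among histone methyltransferases and demethylases 18 of 39 fell and 5 rose (median -0.31). SUV39H1, the heterochromatin H3K9 methyltransferase, was at 4.05 and 3.94 with panobinostat against 6.85 in both DMSO arrays (-2.85 ± 0.14). SETD1B, an H3K4 methyltransferase, fell by 2.58 ± 0.15, and the demethylases KDM7A (2.31 ± 0.18) and KDM5B (1.69 ± 0.14) rose. Polycomb genes had 4 of 21 higher (19.05%, against 19.4% of all genes) and 6 lower (28.6%, against 17.9%), and leaving out 1 array left 1 to 3 higher (1 without either panobinostat array, 2 without DMSO 1). PHF19 fell by 3.14 ± 0.15, JARID2 rose by 1.90 ± 0.12, and EZH2, the H3K27 methyltransferase, fell by 0.49 ± 0.15, a call lost when panobinostat 1, panobinostat 2 or DMSO 1 was left out.

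Histone genes split. Of 49 replication-dependent core histone genes 18 fell and 9 rose, and 23 of the 49 lay under background in both groups. H2AC21 was at 5.77 and 5.23 with panobinostat and 9.58 and 9.39 with DMSO (-3.99 ± 0.25), and H2BC5 at 8.36 and 8.42 with panobinostat and 5.55 and 5.06 with DMSO (3.08 ± 0.18). H2BC18 and H3C10 rose from under background, at least 4.47-fold and 5.00-fold. Core histone genes are so alike that probe sets may read several of them, so these single-gene values are uncertain. The replacement variant H2AZ1 fell by 2.03 ± 0.12 while its near twin H2AZ2 rose by 1.26 ± 0.18. The centromere histone CENPA and its loader HJURP fell by 2.08 ± 0.21 and 2.54 ± 0.17, and the linker histone H1-10 rose by 0.85 ± 0.14 beside falls of H1-2, H1-4 and H1-5.

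Cell cycle genes formed the most uniform group. Each of the 60 genes listed for G2/M and mitosis was called lower (100%, against 17.9% of all genes), with a median of -2.52 and a range of -4.29 to -0.78. That list and the G1/S list below were drawn up with their response in view, so their direction is a description. CDC20, which activates the anaphase-promoting complex, was at 4.38 and 5.27 with panobinostat and 8.53 and 8.39 with DMSO. The mitotic kinase PLK1 was at 5.15 and 5.74 with panobinostat against 9.35 and 9.65 with DMSO, and AURKB at 5.05 and 5.18 with panobinostat against 8.56 and 8.83 with DMSO. Panobinostat 2 was the higher of its pair in these 3 genes and still lay over 3 log2 units under DMSO. Many promoters of such genes are known to carry the cell cycle homology region (CHR), through which the DREAM and MuvB complexes act, and the windows of CDC20 (chr1:43358731-43359030, forward strand) and PLK1 (chr16:23678639-23678938, forward strand) are shown with the CHR letters TTTGAA, on either strand, in capitals:
CDC20: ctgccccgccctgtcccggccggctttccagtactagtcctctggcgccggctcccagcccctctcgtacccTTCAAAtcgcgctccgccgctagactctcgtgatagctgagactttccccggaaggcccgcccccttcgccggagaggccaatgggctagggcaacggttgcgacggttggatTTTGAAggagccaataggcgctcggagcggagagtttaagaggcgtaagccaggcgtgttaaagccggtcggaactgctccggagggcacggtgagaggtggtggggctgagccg
PLK1: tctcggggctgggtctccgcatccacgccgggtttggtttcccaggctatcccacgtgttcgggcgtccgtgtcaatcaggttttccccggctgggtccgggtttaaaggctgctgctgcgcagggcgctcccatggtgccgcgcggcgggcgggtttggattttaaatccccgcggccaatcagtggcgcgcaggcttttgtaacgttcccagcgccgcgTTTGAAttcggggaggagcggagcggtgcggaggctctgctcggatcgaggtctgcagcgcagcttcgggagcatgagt

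Each window runs from 250 bases before to 50 after a RefSeq start (GRCh38.p14), and the sequences are RefSeq's, not read from these cells. The letters TTTGAA were found on either strand in 40 of 64 windows of G2/M genes (62.5%), against 12.7% of 22229 windows of all genes tested and 1 of 48 windows (2.08%) of G1/S genes. CCAAT, the box bound by NF-Y, was in 70.3% of G2/M windows, 62.5% of G1/S windows and 34.6% of all windows. These 2 windows were chosen because they hold the letters, and those of CCNA2 and CCNB1 held none. A match shows the letters and not a bound factor. The windows came from 52 of the 60 genes.

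G1/S and DNA replication genes fell as well, 38 of 46, with 1 higher and a median of -0.94. The replication licensing factor CDT1 was at 5.11 and 5.01 with panobinostat and 7.25 and 7.15 with DMSO, and the phosphatase CDC25A fell by 2.16 ± 0.15. GINS4, of the replicative helicase, was the 1 that rose (0.88 ± 0.16). CDK inhibitor genes parted ways: CDKN1A, encoding p21, was at 7.46 and 7.33 with panobinostat and 3.96 and 3.90 with DMSO, 11.1-fold higher (3.47 ± 0.13). CDKN2B rose by 1.5 ± 0.17 and CDKN2D by 0.83 ± 0.18, whereas CDKN2A fell by 1.71 ± 0.22 and CDKN1B, encoding p27, by 1.34 ± 0.14. RB1 rose by 0.68 ± 0.15, and its relative RBL1 fell by 1.05 ± 0.16.

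Of 25 genes of early G1 arrest and quiescence 13 rose and 4 fell (median 0.49). The growth arrest gene GADD45A was at 8.23 and 8.18 with panobinostat and 6.68 and 6.39 with DMSO, the MYC antagonist MXD1 at 7.35 in both panobinostat arrays and 5.43 and 5.19 with DMSO, and KLF10 rose by 2.30 ± 0.18. GAS1 (-1.63 ± 0.27) and CCNG1 (-0.88 ± 0.16) fell. CDKN1A is induced by HDAC inhibitors through GC boxes bound by SP1, as background, and its window (chr6:36678464-36678763, forward strand) is shown with each GGGCGG, on either strand, in capitals:
CDKN1A: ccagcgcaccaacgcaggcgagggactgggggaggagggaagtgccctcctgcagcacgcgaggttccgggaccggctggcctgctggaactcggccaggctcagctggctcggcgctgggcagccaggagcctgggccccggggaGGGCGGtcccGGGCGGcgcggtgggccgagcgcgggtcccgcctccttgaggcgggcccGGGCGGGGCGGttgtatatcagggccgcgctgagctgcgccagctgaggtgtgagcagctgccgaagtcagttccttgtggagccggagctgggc

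It held 4 matches, of which the last pair overlap. Over all genes GGGCGG was found in 68.3% of the windows of genes called higher, 60.3% of those of genes called lower and 55.5% of all windows. Windows of switched-on genes had it in 57.5%.

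Metallothioneins are small proteins that bind zinc and copper. MT1X was at 11.75 and 11.72 with panobinostat against 8.36 and 8.17 with DMSO (3.47 ± 0.14), and MT2A at 9.27 and 8.84 with panobinostat against 4.07 and 4.27 with DMSO (4.88 ± 0.18, 29.5-fold). MT1F was at 6.67 and 6.70 with panobinostat and 4.84 and 4.05 with DMSO (2.24 ± 0.31). These 3 of 11 measured genes rose, MT1M was called lower from values under background, and 5 of the 11 lay under background in both groups. MT1 genes are near-identical, so their probe sets may share signal. Metallothionein promoters are known for metal response elements (MREs) bound by the zinc-sensing factor MTF1, and the windows of MT2A (chr16:56608334-56608633, forward strand) and MT1X (chr16:56682220-56682519, forward strand) are shown with each TGCACNC or TGCGCNC, on either strand, in capitals:
MT2A: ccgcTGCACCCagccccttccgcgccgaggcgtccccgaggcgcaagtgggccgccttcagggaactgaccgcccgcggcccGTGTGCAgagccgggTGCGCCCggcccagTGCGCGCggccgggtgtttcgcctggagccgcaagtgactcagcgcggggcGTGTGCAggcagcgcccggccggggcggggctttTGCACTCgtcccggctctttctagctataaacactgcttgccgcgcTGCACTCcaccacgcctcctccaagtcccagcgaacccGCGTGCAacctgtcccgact
MT1X: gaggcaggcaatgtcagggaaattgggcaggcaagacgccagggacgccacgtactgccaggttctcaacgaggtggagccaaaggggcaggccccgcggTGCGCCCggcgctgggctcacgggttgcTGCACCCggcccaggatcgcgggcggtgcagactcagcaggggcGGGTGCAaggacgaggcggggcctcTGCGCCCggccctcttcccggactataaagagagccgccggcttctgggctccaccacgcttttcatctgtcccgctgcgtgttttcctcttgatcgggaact

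The MT2A window held 8 matches and that of MT1X 4. All 5 metallothionein windows at hand held at least 1 match, with a mean of 5.20 a window, against 33.4% of all windows and a mean of 0.47. Zinc transporter genes had 10 of 24 higher and 2 lower (median 0.22). The synaptic vesicle transporter SLC30A3 was at 6.66 and 6.57 with panobinostat and 4.92 and 5.04 with DMSO, and the importers SLC39A3 and SLC39A9 rose by 1.05 ± 0.13 and 0.95 ± 0.13. The importer SLC39A10 fell (-0.62 ± 0.14), a call lost without panobinostat 2, as did SLC30A10 at levels under background.

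Death genes moved both ways within the BCL2 classes and among death receptor genes. Of 6 pro-survival BCL2 genes MCL1 rose (8.17 and 7.91 with panobinostat, 7.04 and 6.96 with DMSO) and BCL2 (-1.09 ± 0.20) and BCL2L1 (-0.66 ± 0.14) fell. Of 13 pro-death members 6 rose (46.15%, against 19.4% of all genes) and 4 fell (30.77%, against 17.9%). BCL2L11, which encodes BIM, was at 5.61 and 5.89 with panobinostat and 4.58 and 4.28 with DMSO, and BAK1 rose by 0.92 ± 0.13. BID, which links death receptors to mitochondria, was at 4.75 and 4.43 with panobinostat and 7.42 and 7.32 with DMSO (-2.79 ± 0.19). Leaving out 1 array left 3 to 5 pro-death genes higher, and 3 without either panobinostat array. At the surface the TRAIL receptor TNFRSF10B (DR5) was at 8.45 and 8.34 with panobinostat against 6.68 and 6.49 with DMSO (1.81 ± 0.15), and CFLAR, the inhibitor of caspase 8 activation at such receptors, was at 3.64 and 3.34 against 6.13 and 5.79 in DMSO (-2.48 ± 0.21). CASP8 itself rose from under background, at least 1.32-fold. TNFRSF1A (group means 4.50 with panobinostat, 5.99 with DMSO) and MLKL (3.57 and 4.19) fell. Over the 15 measured genes of death receptors and their ligands 2 rose (13.3%) and 3 fell (20%), with 6 under background in both groups. Of 4 inhibitor of apoptosis genes BIRC2 rose (group means 5.99 with panobinostat, 5.03 with DMSO) and 0 fell.

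Stress genes showed the same mixture. In the integrated stress response, in which translation arrest through eIF2 induces ATF4 targets, 7 of 19 rose and 5 fell (median 0.29). With DDIT3 rose ATF3 (6.69 and 6.24 with panobinostat, 3.89 and 4.05 with DMSO), TRIB3 (1.67 ± 0.16) and asparagine synthetase ASNS (1.53 ± 0.15). NUPR1 was at 3.21 and 3.71 with panobinostat and 6.45 and 6.30 with DMSO, and PSAT1 fell by 1.15 ± 0.15. Endoplasmic reticulum chaperone and sensor genes had 10 of 19 higher and 4 lower (median 0.37). The sensor ERN1 (IRE1) was at 5.69 and 5.86 with panobinostat and 2.72 and 3.09 with DMSO, while XBP1, whose transcript IRE1 splices, was at 6.28 and 5.88 with panobinostat and 7.94 and 7.73 with DMSO. Cytosolic heat shock genes had 11 of 23 lower and 5 higher. HSPA1A rose at least 3.53-fold, though its copy HSPA1B is near-identical, and DNAJB1 rose by 1.49 ± 0.14. The small heat shock genes CRYAB and HSPB1 fell by 2.02 ± 0.20 and 1.55 ± 0.15.

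Genes of the primary cilium rose nearly as a block. Intraflagellar transport (IFT) complexes carry cargo along the axoneme, and the BBSome, named for Bardet-Biedl syndrome, sorts membrane proteins in and out. Of 34 such genes 27 rose (79.4%, against 19.4% of all genes) and 0 fell, with a median of 1.00. IFT88, of the anterograde complex, was at 6.17 and 6.09 with panobinostat and 4.32 and 4.19 with DMSO (1.88 ± 0.14). IFT80 was at 7.87 and 7.77 with panobinostat and 5.97 and 6.10 with DMSO, and DYNC2LI1, of the retrograde motor, at 5.40 and 5.39 with panobinostat and 3.56 and 3.51 with DMSO. BBS4, a BBSome subunit, rose by 1.61 ± 0.18. Each gene was moderate in size, and the 7 not called ranged from -0.03 to 0.39. None of the 34 lay under background in both groups.

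Lysosome and autophagy genes went the same way. Of 55 lysosomal enzyme and V-ATPase genes 33 rose (60%) and 3 fell (median 0.49). Cathepsin B, CTSB, was among the brightest genes at 11.56 in both panobinostat arrays against 8.87 and 8.95 with DMSO (2.65 ± 0.13). The proton pump subunit ATP6V1D was at 9.02 and 9.05 with panobinostat and 6.57 and 6.65 with DMSO, and ATP6V1C2 rose at least 5.47-fold. ARSB, a sulfatase, fell by 2.40 ± 0.22 and cathepsin C, CTSC, by 1.70 ± 0.15. CACGTG, an E-box within the letters known to be bound by TFEB, was in 24.5% of 53 lysosome windows and 8.27% of all windows. Autophagy machinery had 23 of 39 higher and 2 lower (median 0.69). WIPI1 was at 7.87 and 7.95 with panobinostat and 5.64 and 5.35 with DMSO, and the cargo receptor SQSTM1 at 11.56 and 11.55 with panobinostat and 9.52 and 9.29 with DMSO. ATG4B, the protease that processes LC3, rose by 1.88 ± 0.15, and E-boxes were in 4.55% of autophagy windows.

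**Figure D3:**
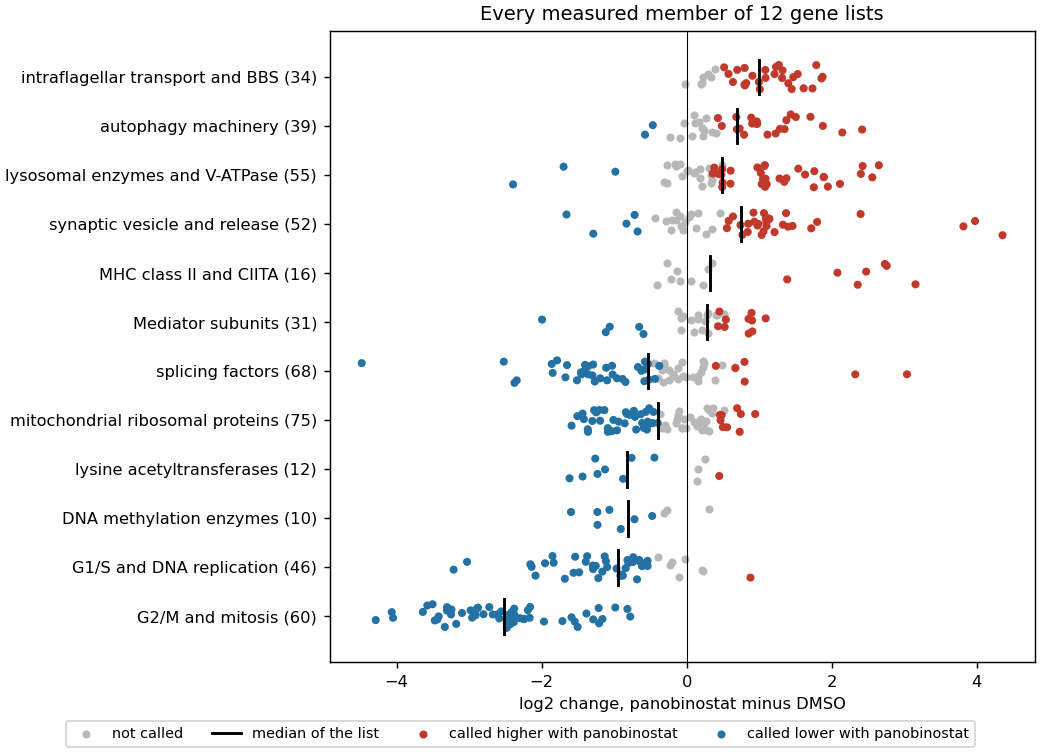
Log2 change (panobinostat minus DMSO, x axis) of every measured member of 12 gene lists, with the number measured in brackets. Red points were called higher, blue points lower, grey points not called, and the black bar is the list's median, which is 1.00 for intraflagellar transport and BBS genes and -2.52 for G2/M genes.

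Neuronal lists differed in their counts. Of 52 synaptic vesicle and release genes 30 rose (57.7%) and 5 fell (median 0.76). SLC17A7, the vesicular glutamate transporter VGLUT1, was at 7.34 and 7.36 with panobinostat and 3.22 and 3.85 with DMSO (3.82 ± 0.21), and synaptophysin, SYP, at 7.59 and 7.69 with panobinostat and 5.21 and 5.27 with DMSO. RIMS1, of the active zone, fell by 1.66 ± 0.14 and the vesicle protein SV2A by 1.29 ± 0.14. Neuropeptides and granins had 12 of 36 higher and 2 lower, with 17 under background in both groups. Secretogranin II, SCG2, was at 5.79 and 5.76 with panobinostat and 3.0 and 3.21 with DMSO, and NPPC, a natriuretic peptide, rose by 2.70 ± 0.18. CHGB was at 5.35 and 5.89 with panobinostat and 4.42 and 2.42 with DMSO, and its call was lost without panobinostat 2.

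Neuronal cytoskeleton and early neuronal genes had 11 of 28 higher (39.3%), 8 of them by over 2-fold, and 8 lower, of which 4 to 7 were called without 1 array. DCLK1, a microtubule kinase of young neurons, was at 6.37 and 5.95 with panobinostat and 1.53 and 1.58 with DMSO, at least 8.75-fold higher, and ELAVL3, a neuronal RNA-binding protein, rose by 2.18 ± 0.20. MAPT, which encodes tau, fell by 0.96 ± 0.13. Of 42 neuronal transcription factor genes 5 rose (11.9%) and 9 fell (21.43%), against 19.4% and 17.9% of all genes. EBF2 rose by 2.30 ± 0.17 and EBF3 fell by 1.72 ± 0.26. REST, the repressor of neuronal genes, was not called (-0.41 ± 0.15, adjusted p = 0.0649). Potassium channel genes had 17 of 87 higher (19.5%, the share over all genes being 19.4%) and 5 lower, with 11 higher without panobinostat 1, among them KCNN3 (at least 5.48-fold higher) and KCNE4 (-3.09 ± 0.23). SCN3B, a sodium channel subunit, was at 6.45 and 6.44 with panobinostat and 3.16 and 3.38 with DMSO. Neurotransmitter receptors had 12 of 62 higher (19.4%) and 11 lower (17.7%), and 6 higher without panobinostat 2 or 7 without DMSO 1. Under background in both groups lay 16 of the neuronal transcription factor genes, 42 of the potassium channel genes and 28 of the receptor genes. Genes that dim were called less often, and the shares over all genes were not matched for level. The GABA receptor subunit GABRQ rose at least 8.08-fold and the AMPA receptor subunit GRIA4 fell by 3.57 ± 0.20.

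Astrocyte markers split, 8 of 24 higher and 7 lower. CLU, clusterin, was at 11.58 and 11.55 with panobinostat and 8.77 and 8.54 with DMSO, ATP1B2, a glial sodium pump subunit, rose by 2.49 ± 0.12, and the glutamate transporter SLC1A3 was at 3.58 and 3.70 with panobinostat against 6.51 and 6.56 with DMSO. Stem and progenitor genes, a list made with earlier results in view, had 14 of 27 lower and 3 higher. FABP7, the radial glia lipid-binding protein, was at 7.16 and 7.21 with panobinostat and 9.89 and 9.70 with DMSO, and the RNA-binding protein MSI1 fell by 2.52 ± 0.21. ITGA6 (2.23 ± 0.16) and vimentin, VIM (1.39 ± 0.13), rose. NES, nestin, fell by 0.78 ± 0.21, a call lost without panobinostat 1 or DMSO 2.

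Signalling receptors changed one by one. Among 41 receptor tyrosine kinase genes 15 rose and 7 fell. FGFR4 was at 7.18 and 6.76 with panobinostat and 3.23 and 3.35 with DMSO (3.68 ± 0.23), and MET, the HGF receptor, rose at least 4.53-fold. ERBB3 was at 5.18 and 4.88 with panobinostat and 8.10 and 8.44 with DMSO (-3.23 ± 0.16). EGFR (0.25 ± 0.14, adjusted p = 0.21) and PDGFRA (0.29 ± 0.15, adjusted p = 0.168) were not called. In the Notch pathway, with 8 of 27 higher and 9 lower, the receptor gene NOTCH1 was at 6.05 and 5.96 with panobinostat and 7.60 and 7.82 with DMSO. Its targets parted, HEY2 at 6.34 and 6.31 with panobinostat against 3.59 and 3.67 with DMSO, HES1 higher by 0.97 ± 0.16, and HES5 lower by at least 4.09-fold. LGR5, a Wnt pathway receptor and stem cell marker, was at 4.44 and 4.34 with panobinostat and 8.14 and 7.76 with DMSO (-3.56 ± 0.15). In TGF-beta and BMP signalling, with 12 of 39 higher and 7 lower, the activin subunit INHBA rose at least 7.87-fold, GDF15 rose by 2.81 ± 0.22 and TGFB3 fell by 2.87 ± 0.20.

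Immediate early transcription factors had 15 of 19 higher, with NR4A1 alone lower (-1.87 ± 0.13), in a list made with earlier results in view. FOS was at 9.40 and 8.99 with panobinostat and 5.73 and 5.30 with DMSO. Of 19 ERK feedback genes 4 rose (21.05%, against 19.4% of all genes) and 6 fell (31.58%, against 17.9%). DUSP5 rose by 3.04 ± 0.23 and SPRY4 fell by 1.26 ± 0.16. In the NF-kB group NFKB2 rose by 1.72 ± 0.21 and NFKB1 fell by 2.49 ± 0.21.

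MHC genes differed by class. Of 16 class II genes 7 rose and 0 fell (median 0.33, 8 under background in both groups). HLA-DPA1 was at 6.40 and 6.56 with panobinostat and 3.31 and 3.34 with DMSO (3.16 ± 0.13), HLA-DMA at 6.66 and 6.72 with panobinostat and 3.98 and 3.89 with DMSO, and HLA-DRA rose at least 3.45-fold. CIITA, the coactivator that drives class II genes, was at 3.01 and 3.25 with panobinostat and 3.26 and 3.19 with DMSO, and CD74, the class II chaperone, at 2.41 and 3.0 with panobinostat and 2.04 and 2.78 with DMSO. Neither was called. Class I presentation genes had 6 of 17 higher and 8 lower: HLA-B rose by 1.80 ± 0.13 and HLA-E by 1.33 ± 0.12, while the loading chaperone TAPBP fell by 2.27 ± 0.13 and the trimming peptidase ERAP1 at least 3.25-fold. HLA genes share sequence, so probe sets may read related members. Interferon-stimulated genes had 7 of 33 higher (21.2%, against 19.4% of all genes) and 1 lower, and 6 higher and 5 lower after centring on array medians. IFI6 was at 7.99 and 8.35 with panobinostat and 5.81 and 6.37 with DMSO.

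The machinery of gene expression lay mostly on the lower side. Of 68 splicing factor genes 37 fell (54.4%) and 6 rose (median -0.53). Besides MBNL3, CELF2 fell by 2.52 ± 0.14, SRSF8 by 2.38 ± 0.17 and NOVA1 by 2.35 ± 0.17. The neuronal CELF3 went the other way, at 5.93 and 5.86 with panobinostat against 2.58 and 3.13 with DMSO, as did CELF5 (2.33 ± 0.23). Mitochondrial ribosomal proteins had 37 of 75 lower and 9 higher (median -0.40), the higher count being 2 without panobinostat 1, 6 without panobinostat 2 and 3 without DMSO 2, with MRPS34 down by 1.59 ± 0.16. Host genes of small nucleolar RNAs had 14 of 25 lower and 1 higher (median -0.67), with SNHG3 down by 1.90 ± 0.21. Nucleoporins had 14 of 29 lower and 5 higher. In Mediator, which links enhancers to RNA polymerase II, 10 of 31 rose (6 without panobinostat 1) and 5 fell (median 0.28), and MED24 fell by 2.00 ± 0.14. The elongation factor ELL2 was at 7.93 and 7.90 with panobinostat and 5.68 and 5.87 with DMSO.

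Metabolic genes showed turns within pathways. The genes of the glycolytic isozymes ALDOC and ENO2 rose. ALDOC, also listed here as an astrocyte marker, was at 8.47 and 8.64 with panobinostat and 5.92 and 6.14 with DMSO. The neuronal ENO2 was at 8.36 and 8.30 with panobinostat and 6.18 in both DMSO arrays. The glucose transporter SLC2A1 fell by 1.09 ± 0.12. Over 25 genes of glucose uptake and glycolysis 8 rose (32%) and 6 fell (24%), against 19.4% and 17.9% of all genes. Fatty acid synthesis genes had 6 of 21 higher (28.57%) and 8 lower (38.1%). Fatty acid synthase FASN was at 5.91 and 5.67 with panobinostat and 8.47 in both DMSO arrays (-2.67 ± 0.16). The elongase ELOVL6 fell by 3.21 ± 0.13 whereas ELOVL4 rose by 1.96 ± 0.14. INSIG1, the brake on sterol synthesis, was at 10.89 and 10.86 with panobinostat and 8.29 and 8.09 with DMSO. PPARGC1A rose by 1.94 ± 0.22 and its relatives PPRC1 (-2.32 ± 0.14) and PPARGC1B (-1.17 ± 0.16) fell. Oxidative phosphorylation genes had 21 of 78 lower (26.92%) and 12 higher (15.38%, under the share over all genes). Both counts were smaller when any 1 array was left out. The drug efflux pumps ABCB1 and ABCG2 both rose: ABCB1 was at 5.88 and 5.92 with panobinostat and 2.42 and 3.0 with DMSO, at least 7.32-fold higher, and ABCG2 at 5.06 and 5.11 with panobinostat and 3.30 and 3.38 with DMSO.

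Outside the cell, TIMP1, an inhibitor of matrix metalloproteinases, was at 11.44 and 11.57 with panobinostat and 7.85 and 8.59 with DMSO (3.29 ± 0.22), TIMP3 rose by 2.96 ± 0.20 and TIMP4 fell by 2.33 ± 0.19. COL6A3 was at 6.80 and 6.71 with panobinostat and 3.02 and 3.10 with DMSO, and the laminin chain gene LAMA4 fell by 2.80 ± 0.15. ZEB2, a mesenchymal transcription factor, was at 5.63 and 5.53 with panobinostat and 8.75 and 9.0 with DMSO.

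Most genes restricted to other tissues were not called. Of 111 germline and cancer-testis genes 14 rose (12.6%, against 19.4% of all genes) and 8 fell, and 80 lay under background in both groups. Those that rose included GTSF1, a piRNA pathway gene (at least 16.2-fold), and SSX1, at 6.74 and 6.99 with panobinostat and 2.71 and 3.44 with DMSO. Keratin and epithelial junction genes had 10 of 96 higher (10.42%) and 6 lower (6.25%), with 64 under background in both groups. HOX genes had 4 of 29 higher (13.79%) and 3 lower (10.34%), each under the share over all genes, with 14 under background in both groups. Genes under background were called less often at large, and these shares were not matched for level. Olfactory receptors had 3 of 354 higher and 29 lower. That 334 of the 354 lay under background was largely set in advance, since the level was taken from these genes. C2H2 zinc finger genes were close to the background share, with 97 of 508 higher and 110 lower. After centring on array medians, calls were 13 higher and 14 lower for germline genes and 10 and 11 for keratin and junction genes.

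Markers of other cell types were counted because several of the rises above are known from immune cells. Of 18 microglia and macrophage markers 4 rose, which were ITGAX, CD68, CSF1R and TMEM119. ITGAX, the integrin CD11c, was at 7.99 and 8.13 with panobinostat and 2.53 and 3.37 with DMSO, at least 32.8-fold higher, and CD68, a lysosomal glycoprotein, at 9.61 and 9.32 with panobinostat and 5.34 and 5.71 with DMSO. The summed level of this list was 10.2 and 10.05 with panobinostat and 7.02 and 7.35 with DMSO on the log2 scale. Values were summed before taking logs, so the brightest members, CD68 and ITGAX with panobinostat, carry most of it. The median change of the list was 0.09, and 14 of the 18 were not called. In both groups 11 of the 18, PTPRC, AIF1, P2RY12 and CX3CR1 among them, lay under background. In these whole cultures a change in the number of cells of a kind and a change in RNA per cell cannot be told apart, and the part of such cells in any result was not tested. Endothelial (2 of 13 higher, 2 lower), pericyte and fibroblast (1 of 14 and 1), lymphocyte (1 of 12 and 0), hepatocyte (1 of 14 and 1) and muscle markers (1 of 17 and 0) were called at or below the shares over all genes. In that order 8, 8, 7, 10 and 11 of these markers lay under background in both groups, where calls were rarer for all genes. Of 11 housekeeping genes 2 rose and 1 fell.

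**Figure D4:**
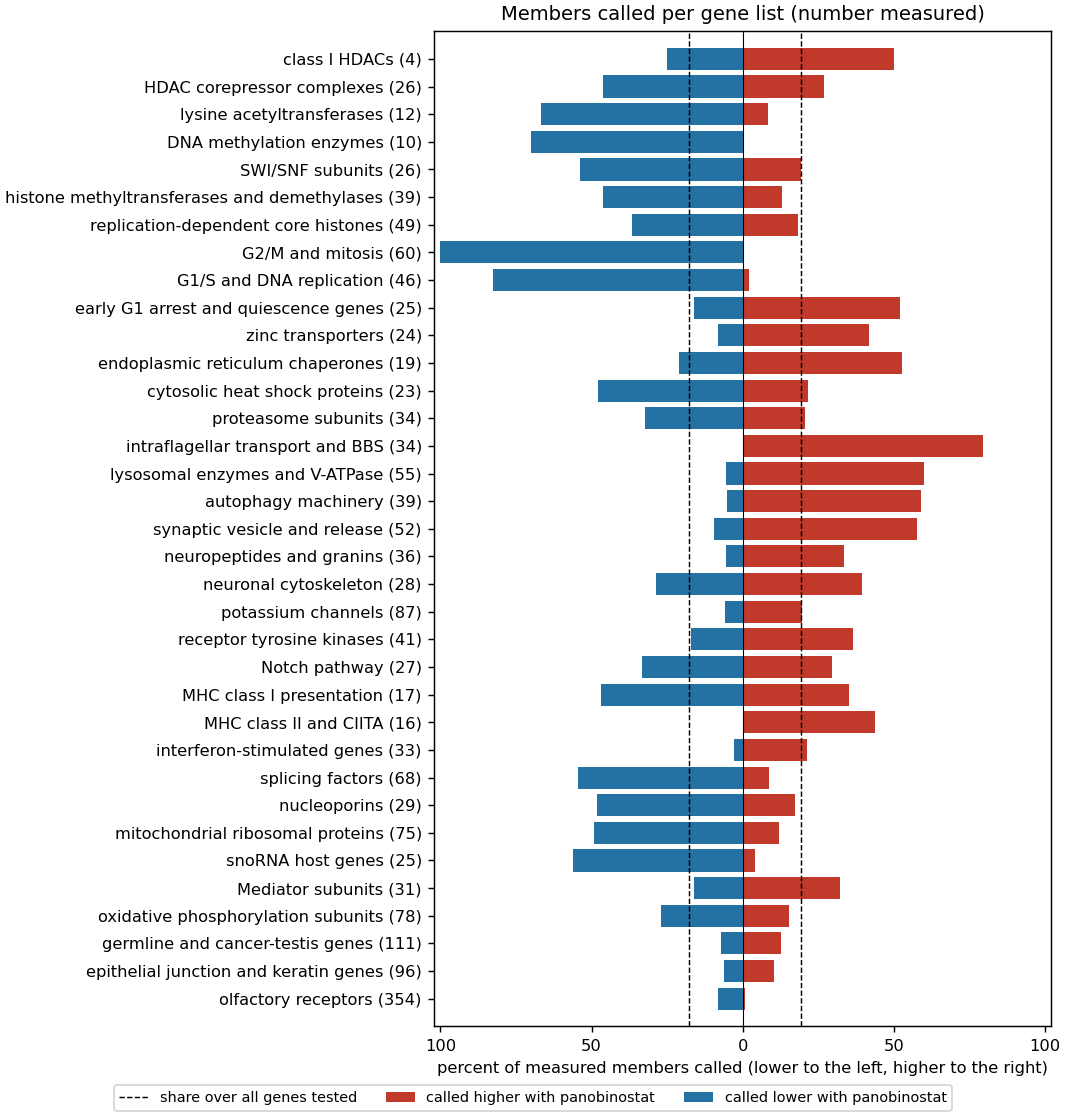
For 35 gene lists (number measured in brackets), bars show the percent of members called higher with panobinostat (red, to the right) and called lower (blue, to the left). Dashed lines mark the shares over all genes tested, 19.4% higher and 17.9% lower, and the G2/M bar reaches 100% to the left.

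Panobinostat was next set directly against OTX015 at the same concentration and time, with the same panobinostat arrays as before. The drugs are not structural relatives, and this contrast asks which changes differ between HDAC and BET inhibition. Of 22458 genes 6582 were called (29.3%), 3603 higher (16%) and 2979 lower (13.3%) with panobinostat. Centring each array on its median moved the median of all genes to -0.16, against -0.03 as deposited, and the split to 2776 higher and 4088 lower, so small differences in this contrast depend on the scaling. All 60 G2/M genes were lower with panobinostat than with OTX015 (median -2.25), as were 33 of 46 G1/S genes, 6 of 10 DNA methylation genes and 33 of 68 splicing genes. Of the cilium genes 26 of 34 were higher with panobinostat (median 0.84), and 27 of 55 lysosome genes, 16 of 39 autophagy genes and 7 of 16 class II MHC genes were higher too.

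Values in all groups are given for examples of 3 kinds of gene, picked by hand and without a sharp border between kinds. DDIT3 was at 8.48 in both panobinostat arrays, 8.77 and 8.64 with both drugs, 3.91 and 3.71 with OTX015 and 3.73 and 4.01 with DMSO, so its OTX015 values lay in the range of DMSO, and panobinostat exceeded OTX015 by 4.67 (adjusted p = 1.73e-06). MT1X was at 11.75 and 11.72 with panobinostat, 11.86 and 11.85 with both, 7.78 and 7.55 with OTX015 and 8.36 and 8.17 with DMSO. Its OTX015 values thus lay below those of DMSO. VGF, by contrast, stood at 9.05 and 8.82 with OTX015, between its panobinostat and DMSO values, and panobinostat exceeded OTX015 by 2.31 (adjusted p = 1.08e-05). ROPN1L (7.93 and 7.60 with panobinostat, 6.31 and 5.82 with OTX015, 3.38 and 3.50 with DMSO) and CDKN1A (7.46 and 7.33, 6.14 and 6.10, 3.96 and 3.90 in the same order) were also intermediate. The third kind was as low with OTX015 as with panobinostat: ITIH6 was at 3.21 and 2.91 with panobinostat and 3.44 and 3.46 with OTX015, a difference of -0.39 (adjusted p = 0.237), and ZHX2, a repressor, at 2.42 and 2.37 with panobinostat and 2.17 and 2.55 with OTX015, both under background.

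**Figure D5:**
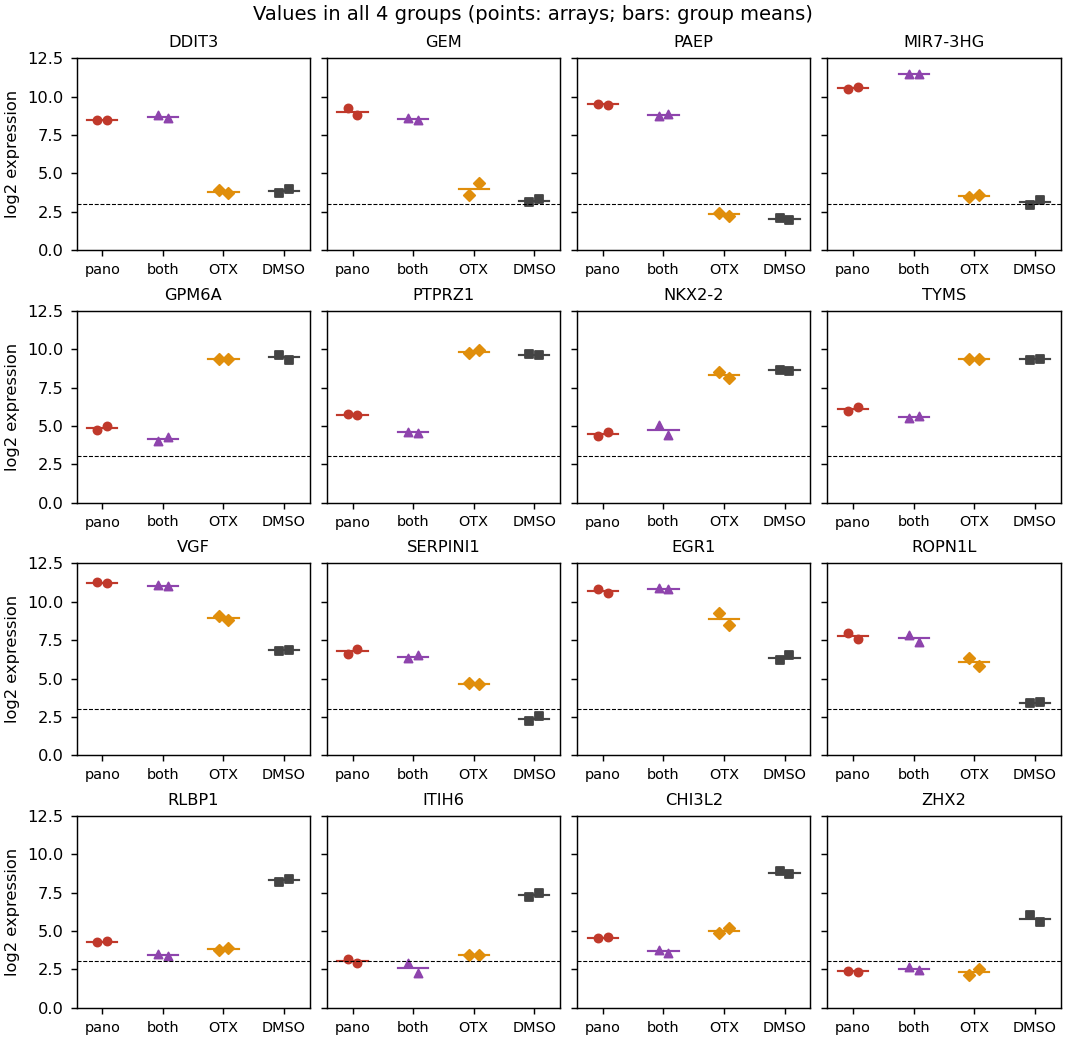
Log2 expression (y axis) of 16 genes in each array (points) with group means (bars), in the order panobinostat (pano), both drugs (both), OTX015 (OTX) and DMSO. The dashed line is the background level of 3.03. The 16 genes were picked by hand as examples, and the rows have no sharp border. The top 2 rows hold genes whose OTX015 values lie nearer DMSO than panobinostat. Row 3 holds genes with OTX015 in between, of which VGF also lies slightly nearer DMSO, and row 4 genes low with either drug.

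Adding OTX015 to panobinostat moved fewer genes: 2342 of 22458 were called between both drugs and panobinostat alone (10.4%), 972 higher (4.33%) and 1370 lower (6.1%). This contrast shares the panobinostat arrays with the first. XIRP1 was at 5.21 and 5.31 with both drugs against 7.46 and 7.38 with panobinostat alone (-2.16, adjusted p = 0.000627), and HLA-DPA1 at 5.43 and 5.48 with both against 6.40 and 6.56 (-1.02, adjusted p = 0.00341). MIR7-3HG rose further, to 11.45 and 11.46 with both drugs against 10.49 and 10.61 with panobinostat alone (0.90, adjusted p = 0.00827). H2BC5 was higher with both (9.45 and 9.58) than with panobinostat alone (8.36 and 8.42). CCNA2 and PLK1 differed by -0.13 (adjusted p = 0.782) and 0.07 (adjusted p = 0.886), and were not called.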

How the data were processed

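Total RNA of NCH644 neurospheres was labelled with biotin for single-colour arrays, per the labels' protocols. The deposited values are log2 RMA expression. The submitters' processing notes name affy 1.36.1 and R 2.15.1 as the authors' tools. RMA makes array distributions alike, so a change in total RNA per cell would not show, and dim or very bright signals are compressed. Neither labels nor headers state the array model, probe definitions or build. Array medians lay between 3.87 and 4.00, duplicates correlated across genes at r = 0.993 (panobinostat) and 0.9903 (DMSO), and 0 pairs of arrays held identical values.

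All 8 arrays entered 1 limma fit (limma 3.58.1, R 4.3.3) with 4 group means, 4 residual degrees of freedom and Benjamini-Hochberg adjustment over 22458 genes, without a filter on low values. The 1328 probe sets without a symbol were kept apart. Folds of genes dim in 1 group are lower bounds against the background level. Replicate numbers come from the titles. Deviations from the group means of same-numbered panobinostat and DMSO arrays correlated at 0.12 over genes, and with only 2 numbers no pairing is shown.

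Named genes are the 15 largest rises and 15 largest falls above background, 12 switched on and 12 off, and 6 bright rises and falls. Small RNA genes, antisense RNAs, uncharacterised loci and families such as histone, HLA, MT1 and numbered ZNF genes were left out of these rankings. Further named are 5 noncoding rises and falls, up to 5 called members of each list by size (with up to 2 against the majority), and a fixed set. The members, the 92 lists (10 of them from earlier results) and these rules were chosen with earlier results of these data known. Markers and members named for contrast or in a sentence on a single gene outside these rules (SOX2, OLIG2, GFAP, PTPRC, AIF1, P2RY12, CX3CR1, VMP1, MCM7, CIITA, CD74) were chosen after their values were seen, as were the miRNA genes, motifs and printed windows. Some genes of the fixed set were not analysed here. Alternatives tried were leaving out each array, a replicate block, array weights, a robust fit with an intensity trend, a fit of the compared groups alone, all probe sets, dropping the 25% dimmest genes, median centring, quantile normalization, treat at log2 0.5 and an adjusted p under 0.01.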

Additional observations from a re-analysis of the deposited data

Results flagged for a closer look

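Among the 1328 probe sets with no gene symbol, which no comparison above uses, 390 (29.4%) were called between panobinostat and DMSO when all probe sets were tested together, 206 higher and 184 lower. The largest rise was 5.37 and the largest fall -4.48 on the log2 scale. What these probe sets measure is not known from the labels.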

How the results depend on the processing

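The count of 8360 genes called between panobinostat and DMSO lay between 6604 and 7320 when 1 array was left out, and between 6042 and 8728 under the other alternatives except treat, which tests for changes beyond 0.5 on the log2 scale and left 3818 (1977 higher, 1841 lower). With treat, panobinostat against OTX015 had 2352 calls and both drugs against panobinostat 180. At adjusted p under 0.01 those contrasts had 4272 and 622. Both drugs against panobinostat gave 1477 calls when only those groups were fitted and 566 to 1039 without 1 array. With the replicate number as a block the counts were 8539, 6706 and 2365, and no pairing of arrays by number is stated in the labels. Of 533 named genes 528 were called, and 44 lost the call in at least 1 alternative other than a stricter threshold. Every naming rule but those of the fixed set and the miRNA genes took called genes only. The 528 was thus set by the choice of genes, while 37.2% of all genes were called. HDAC10, not called, was the only named gene to turn sign (-0.056 after centring, and -0.127 to 0.182 without 1 array), and the cause was not tested. Without 1 array, the 60 lower G2/M genes were 59 to 60, and the higher counts were 23 to 26 for cilium (27 with all arrays), 25 to 28 for lysosome (33), 20 to 22 for autophagy (23) and 25 to 30 for synaptic vesicle genes (30). Smaller counts moved by over 1.5 times: higher calls were 5 to 7 for Notch (8), 3 to 4 for SWI/SNF (5), nucleoporins (5) and cytosolic heat shock genes (5), and lower calls were 3 to 4 for the integrated stress response (5), 1 to 2 for endoplasmic reticulum chaperones (4), 2 to 5 for synaptic vesicle genes (5), 3 to 8 for keratin and junction genes (6) and 16 to 28 for olfactory receptors (29). Signal near background limits what can be said of 7755 genes that lay under it in both groups.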
